A study of Mus musculus with 12 samples.

Results

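Collagens, laminins and integrins are the structural chains of the extracellular matrix and the receptors that hold cells to it. Their transcripts were followed through life in RNA-Seq libraries of myelin, the membrane layers that oligodendrocytes wrap around axons. The genes were chosen by symbol: every numbered collagen, laminin or integrin symbol, with Fn1, Tnc, Tnr, Sparc and Hspg2 added by name. Earlier results of these data were known when they were chosen. This gave 83 of the 21937 genes listed, namely 41 collagens, 11 laminins, 21 integrins, 5 other matrix genes and 5 genes whose symbols match the pattern although they encode no collagen or integrin chain. The last 5 are Col4a3bp, a ceramide transfer protein, and Itgb1bp1, Itgb1bp2, Itgb1bp3 and Itgb3bp. Integrin alpha chains named by a letter, such as Itgav and Itgam, lie outside the rule and are given as related genes.

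Myelin was enriched from whole brains of male wild-type c57Bl6/N mice on sucrose density gradients at 4 ages: postnatal day 18 (P18), 75 days (P75), 6 months and 24 months. Each age had 3 libraries, from different mice at different ages, and all groups share strain, sex and genotype. A normalized read count is the number of reads on a gene divided by the size factor of its library, and 1 read was worth 0.812 to 1.19 of it. The libraries held 20299052 to 27214385 reads on genes. Separate brains are stated for the 6-month libraries, so elsewhere the p-values measure the spread between libraries, which may be partly technical.

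Laminins are secreted as trimers of an alpha, a beta and a gamma chain and form, with type IV collagen and perlecan, the sheet-like basement membranes that in brain surround vessels and cover the surface. Integrins are dimers of an alpha and a beta chain. In oligodendrocytes the laminin receptor made of the alpha chain Itga6 and the beta chain Itgb1 is known from work on survival and on the start of wrapping, and tenascin-R (Tnr) is a matrix glycoprotein that oligodendrocytes deposit around axons and nodes.

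The fraction carried the defining transcripts of its label. The summed count of 10 mature oligodendrocyte markers, Mog and Mag among them, was 192574 to 613682 per library, and Mbp alone took 4.76 to 20.8% of the reads. RNA of other cells was present too. The 10 neuronal markers summed to 185079 to 235881 per library and the 10 astrocytic markers to 101297 to 122334. In P75 replicate 2 the neuronal sum was 235881 and the mature oligodendrocyte sum 192574, and in P75 replicate 3 they were 214626 and 213617. The 12 endothelial markers summed to 842 to 1208, the 10 mural markers to 461 to 762, and the 10 fibroblast and meningeal markers to 2938 to 7672, whereas the 7 choroid plexus markers ranged from 12714 to 47612 and the 10 microglial markers from 5449 to 17117, both lowest at P18. In a bulk fraction fewer cells of a type and less RNA per cell cannot be told apart. Replicate 3 at P18 stood apart: 35.6% of the tested members deviated there by more than 1.5-fold from the mean of the other P18 libraries, against 10.6% of all tested genes, and in the remaining 11 libraries this share of members was 5.5 to 15.1%. The P18 to P75 calls that changed without it, and whole-life values of some members, are given with the collagens.

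Most of these transcripts were scarce. The median member had a mean normalized read count of 80.9 over the 12 libraries. Only Sparc, Itgb1, Col4a3bp and Itgb4 exceeded 1000, 33 members lay between 100 and 1000, 36 between 10 and 100, and 10 below 10. At every age 25 members had a mean above 100, and 36 members reached this level at no age. The 10 members below 10 were Col10a1, Col28a1, Col4a3, Col4a4, Col6a6, Itga2, Itgb1bp2, Itgb1bp3, Itgb2l and Itgb6, and they were not tested.

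Levels of different genes can be compared only per length, here per kilobase of merged exons. On this scale Sparc, a secreted collagen-binding glycoprotein, stood first at 6 months with 5186 per kb, followed by Itgb1 (508), Col4a3bp (337) and Itgb5 (334). Itgb4, the partner of Itga6 in the hemidesmosomes of epithelia, had 172 per kb. The highest collagens were Col6a1 (115 per kb), Col9a3 (89.0) and Col9a2 (74.5), and the highest laminin chains were Lamb2 (58.8), Lamc1 (50.5) and Lamb1 (34.4). Among the laminin alpha chains Lama2, the chain affected in merosin-deficient muscular dystrophy with its white matter changes, had 27.7 per kb, and the other alpha chains had 4.27 to 6.88. Of the chains known to bind laminin, Itga3 (72.0 per kb) and Itga7 (60.6) were above Itga6 (15.5) even at the age at which Itga6 was highest.

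Of the 73 members that reached a mean of 10 and were tested, 33 changed from P18 to P75 at a false discovery rate of 0.1, 40 in the step from P75 to 6 months and 28 between 6 and 24 months. Over these steps 48.8%, 60.6% and 29.3% of all 14634 tested genes changed, so that the members changed in shares of 45.2%, 54.8% and 38.4%. From P18 to 24 months 53 members changed (72.6%, against 69.0% of all genes), 46 upward and 7 downward. Upward calls thus made up 63.0% of the tested members, where 34.7% of all genes rose and 34.3% fell. Of the members, 24 rose by more than 2-fold over this span and 1 fell by more than 2-fold, where 14.5% and 3.98% of all genes did so. The median log2 change of the members was 0.72, and that of all tested genes was -0.01. With quantile normalization the split was 34 upward to 12 downward, where 30.1% of all genes rose and 40.6% fell. The median of all genes itself moved to -0.11 in that fit. Changes of more than 2-fold within 1 step were few. From P18 to P75 members that rose, Lama5 among them, and Col9a1, which fell, made up 2 and 1 of the members against 2.82% and 1.73% of all genes. In the next step Itgb8, Itga6, Tnr, Col25a1, Col13a1 and Lamc3 rose and Col9a1 fell, 6 and 1 of the members against 5.3% and 4.0% of all genes. In the last step Col7a1, Col5a3 and Col24a1 rose, 3 of the members against 1.22% of all genes, and Itgb8 fell. The mean was highest at 24 months in 37 of the 73 members (50.7%, against 24.7% of all genes) and lowest at P18 in 36 (49.3%, against 33.6%).

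**Figure D1:**
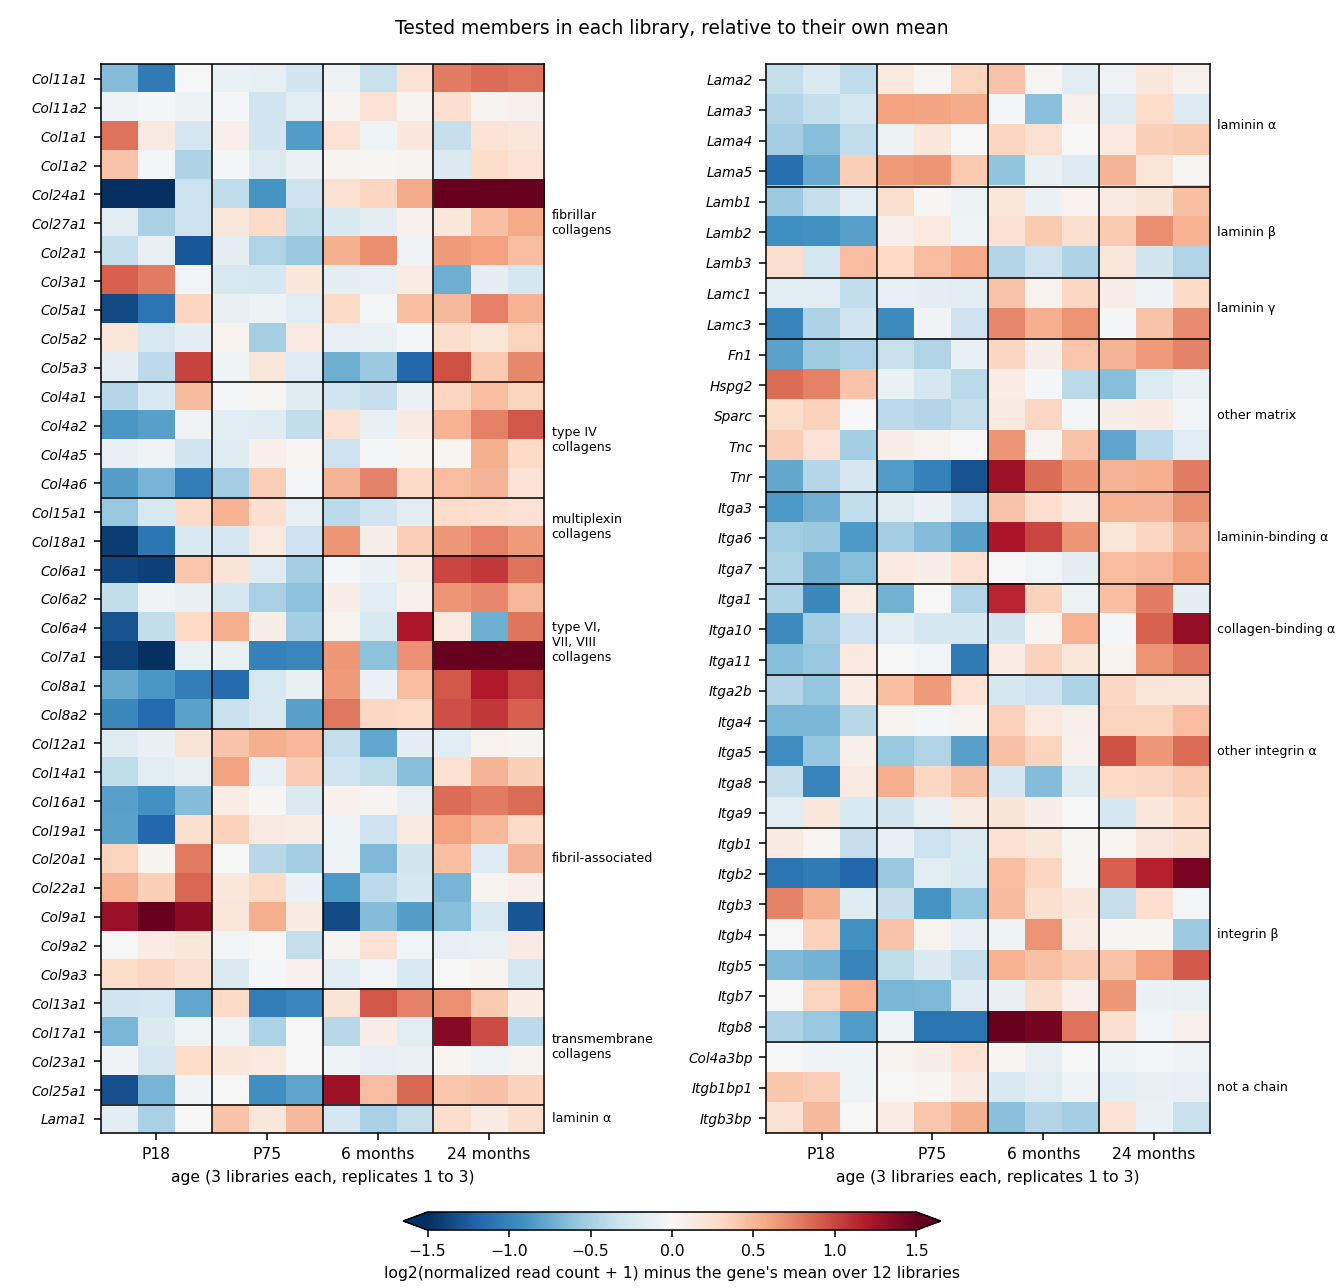
Each row is 1 of 72 of the tested members, grouped by role, and each column 1 of the 12 libraries in order of age and replicate; the colour gives log2(normalized read count + 1) minus the mean of the gene over the 12 libraries, from blue (below its mean) to red (above). Many collagen rows are reddest at 24 months, Itga6, Itgb8 and Tnr are reddest at 6 months, and the third P18 column differs from the first and second in rows such as Col6a1, Col5a1 and Lama5.

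The first step, from P18 to P75, was marked by the laminins. Of the 11 chains 8 rose and 0 fell, where 25.9% of all genes rose and 22.9% fell, and the median log2 change of the laminins was 0.54 against 0.015 for all genes. All 5 alpha chains rose, with log2 changes of 0.49 (Lama2), 0.54 (Lama4), 0.59 (Lama1), 0.94 (Lama3) and 1.07 (Lama5). At an unadjusted p under 0.05 limma gave 0 lower laminins too, and edgeR and DESeq2 each called 8 higher and 0 lower. The count was 8 and 0 in each of the 12 fits that left out a library.

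Lamb2, the beta chain typical of vessels and synapses, counted 143, 144 and 154 at P18, 286, 299 and 258 at P75, 317, 356 and 320 at 6 months, and 356, 438 and 388 at 24 months. No library of a later age fell into the P18 range. It rose by a log2 change of 0.93 ± 0.11 to P75 (SE, n = 3 libraries per age; adjusted p = 8.38e-06) and of 0.24 ± 0.11 to 6 months (adjusted p = 0.0736), the latter lost when any of 3 libraries was left out (P75 replicate 1 or 3, or 6-month replicate 2; log2 change 0.18 to 0.28, adjusted p up to 0.231). Lamb1, the more widespread beta chain, changed less, from 226, 258 and 294 at P18 to 392, 335 and 315 at P75, a log2 change of 0.42 ± 0.13 (adjusted p = 0.0132), and stayed between 312 and 453 thereafter. The ratio of Lamb2 to Lamb1 accordingly went from 0.57 ± 0.06 (SD, n = 3) at P18 to 0.81 ± 0.08 at P75 and 1.0 ± 0.15 at 24 months.

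Lama5 showed how far replicate 3 at P18 weighs. It counted 41.6 and 54.2 in replicates 1 and 2 but 119 in replicate 3, next to 143, 146 and 122 at P75. The log2 change to P75 was 1.07 ± 0.28 (adjusted p = 0.00541) with all libraries and 1.51 without replicate 3 (adjusted p = 1e-05). Lama2 had no such split, with 194, 214 and 191 at P18 and 275, 253 and 314 at P75, where the groups do not overlap (log2 change 0.49 ± 0.14, adjusted p = 0.0102). Lama4, a chain of vessel walls, counted 47.5, 44.1 and 53.2 at P18, 65.1, 77.9 and 68.5 at P75, 86.1, 80.8 and 69.1 at 6 months and 76.3, 88.7 and 90.7 at 24 months. All its later libraries lay above those of P18, with a log2 change of 0.54 (adjusted p = 0.011) to P75 and 0.81 (adjusted p = 0.000264) over the whole span.

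From P75 to 6 months 4 of the 11 laminins rose and 4 fell, 36.4% each, near the shares of all genes. Lama1, Lama3, Lama5 and Lamb3 fell, with log2 changes of -0.73, -0.78, -0.87 and -0.85. Lamb2, Lamc1 and Lamc3, with 0.24, 0.40 and 1.09, were among those that rose. At this step 31.2% of all genes rose and 29.4% fell. Lamc1, the gamma chain of most laminins, counted 308, 312 and 269 at P18, 318, 315 and 311 at P75, 466, 359 and 429 at 6 months and 372, 335 and 422 at 24 months, so its 6-month libraries lay above those of P75 (log2 change 0.40 ± 0.12, adjusted p = 0.00789). From 6 to 24 months Lama1 was the only laminin called (0.58 ± 0.17, adjusted p = 0.0293), and the call was lost without 6-month replicate 2. Over the whole span 9 of 11 rose and 0 fell, where 34.7% of all genes rose and 34.3% fell. With quantile normalization 5 rose and 1 fell, against 30.1% and 40.6% of all genes.

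**Figure D2:**
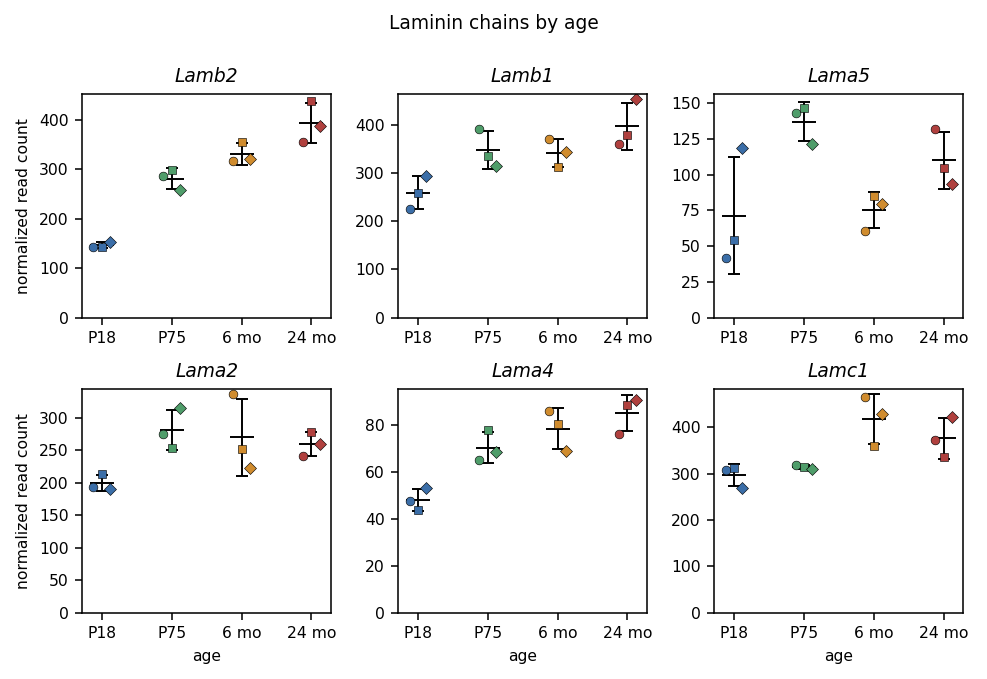
Normalized read count (y axis, from 0) of 6 laminin chains at each age (x axis), where circles, squares and diamonds are replicates 1, 2 and 3, the bar is the mean and the whisker the SD over 3 libraries. Lamb2 steps up between P18 and P75 and its later means are higher still, though its step from 6 to 24 months was not called (log2 change 0.25, limma adjusted p = 0.112). The diamond of Lama5 at P18 lies at 119 while the other P18 libraries lie at 41.6 and 54.2.

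Integrins changed in larger numbers in the middle step, as all genes did. Of 18 tested chains 7 rose and 2 fell from P18 to P75, 10 rose and 3 fell in the step to 6 months, and 5 rose and 2 fell in the step to 24 months. The chains called were 9 of 18 in the first step, against 48.8% of all genes, and 72.2% and 38.9% in the next steps, against 60.6% and 29.3%. Of the 7 tested beta chains 6 rose between P75 and 6 months (Itgb1, Itgb2, Itgb3, Itgb5, Itgb7 and Itgb8), and the seventh, Itgb4, was not called, where 31.2% of all genes rose. Without 6-month replicate 2 the count was 5 of 7. Over the whole span 13 of 18 rose and 0 fell, where 34.7% of all genes rose and 34.3% fell. With edgeR and DESeq2 13 and 12 were called higher and 0 lower.

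The steepest rises of this step were those of Itgb8, the matrix gene Tnr and Itga6. Itgb8 and Itga6 were then called lower at 24 months, and Tnr was not. Itga6, the oligodendrocyte laminin receptor chain, counted 48.7, 47.5 and 38.2 at P18, 49.1, 44.5 and 39.8 at P75, 167, 142 and 112 at 6 months and 80.2, 88.7 and 101 at 24 months. The 6-month libraries lay above all others, and those of 24 months above all of P18 and P75. The rise to 6 months had a log2 change of 1.62 ± 0.18 (adjusted p = 2.45e-06) and the later change was -0.62 ± 0.18 (adjusted p = 0.0232), which without 6-month replicate 1 became -0.49 (adjusted p = 0.12).

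Itgb8, which pairs with Itgav to bind latent TGF-beta, counted 53.5, 49.7 and 41.2 at P18, 71.2, 34.3 and 34.3 at P75, 226, 202 and 131 at 6 months and 88.2, 72.4 and 77.8 at 24 months. Its lowest 6-month library stood above every library of another age. The log2 change was 2.03 ± 0.25 up (adjusted p = 8.64e-06) and then -1.19 ± 0.25 (adjusted p = 0.006), the only fall of more than 2-fold among the members from 6 to 24 months (background 0.465% of all genes). Tnr counted 63.0, 80.2 and 90.4 at P18, 60.1, 52.9 and 43.1 at P75, 262, 194 and 169 at 6 months and 154, 158 and 186 at 24 months. It fell to P75 (log2 change -0.57 ± 0.18, adjusted p = 0.0204), rose to 6 months (1.97 ± 0.18, adjusted p = 6.38e-07), and its 6- and 24-month libraries overlapped (-0.31 ± 0.18, adjusted p = 0.245). Of the partners, Itgb1 changed by 0.36 ± 0.11 between P75 and 6 months and Itgav rose at each step.

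Some genes outside the rule, given as examples because of their values, also rose to 6 months and fell to 24 months. Of the 89 tested related genes 46 rose and 11 fell to 6 months, against 31.2% and 29.4% of all genes. To 24 months 20 rose and 12 fell, against 16.6% and 12.7%. The share of all genes that took both steps was not computed. Dag1, the dystroglycan that is the other main laminin receptor, averaged 119 and 74.5 at P18 and P75, then 525 at 6 months, then 258 in the oldest mice (log2 change 2.81 to 6 months and -1.02 to 24 months, adjusted p = 2.7e-08 and 0.00195). Ntn4, a laminin-related netrin, rose by 2.79 to 6 months, Spock2, a testican proteoglycan, by 2.52 and the membrane metalloproteinase Mmp24 by 1.67. Each of these fell from 6 to 24 months, by log2 changes of -0.66, -0.90 and -0.68. Markers of other cells moved in these steps too. Of 10 neuronal markers 7 rose and 2 fell to 6 months and 0 rose and 4 (Camk2a, Eno2, Nefl and Nefm) fell to 24 months, and of 6 oligodendrocyte precursor markers 5 rose and 0 fell and then 0 rose and 2 fell. Summed, the neuronal markers lay between 210957 and 219067 at 6 months, inside or near their P75 range of 211522 to 235881. The precursor markers summed to 2380 to 2669 at P75 and 3116 to 3575 at 6 months. No marker of either list was at 0, and their part in these values was not tested.

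For Itgb8 and Tnr RefSeq (GRCm38.p6) held a promoter window, and the 250 bases before the transcript start are shown because these genes had the largest rises of the members to 6 months. The windows were searched on both strands for a CCAAT box (CCAAT), a GC box (GGGCGG) and a TATA box (TATAAA), and capitals mark the matches. Itgb8 lies on the minus strand of chr12:119238277-119238526 and Tnr on the plus strand of chr1:159523519-159523768.
Itgb8: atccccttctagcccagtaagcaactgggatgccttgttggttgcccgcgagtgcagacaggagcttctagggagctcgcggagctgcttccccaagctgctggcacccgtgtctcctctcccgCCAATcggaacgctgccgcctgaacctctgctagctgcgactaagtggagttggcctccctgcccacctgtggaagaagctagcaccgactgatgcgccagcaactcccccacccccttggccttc
Tnr: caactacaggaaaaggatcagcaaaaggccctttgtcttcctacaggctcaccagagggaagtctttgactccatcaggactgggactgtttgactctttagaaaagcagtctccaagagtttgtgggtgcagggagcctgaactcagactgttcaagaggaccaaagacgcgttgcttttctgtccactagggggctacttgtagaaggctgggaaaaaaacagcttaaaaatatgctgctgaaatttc
The Itgb8 window held 1 CCAAT box, 0 GC boxes and 0 TATA boxes and was 62.4% G or C, and the Tnr window held 0 of each and was 46.8% G or C. Of all 32851 windows of this length 33.8% held a CCAAT box, 32.7% a GC box and 12.4% a TATA box, with a median of 52.4% G or C. The 2 windows therefore differ in base composition and share none of these motifs.

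The more abundant beta chains changed steadily or little. Itgb1, the common partner of the laminin- and collagen-binding alpha chains, counted 2047, 1921 and 1467 at P18, 1724, 1497 and 1614 at P75, 2206, 2119 and 1894 at 6 months and 1915, 2105 and 2213 at 24 months, and only the step to 6 months was called (0.36 ± 0.11, adjusted p = 0.0127). Itgb5, a vitronectin-binding partner of Itgav, counted 518, 504 and 414 at P18, 631, 710 and 641 at P75, 1185, 1113 and 1070 at 6 months and 1111, 1261 and 1556 at 24 months. It rose by a log2 change of 0.47 ± 0.12 and then of 0.76 ± 0.12 (adjusted p = 0.00431 and 5.39e-05), and its ratio to Itgb1 went from 0.27 ± 0.01 (SD, n = 3) at P18 to 0.63 ± 0.07 at 24 months. Itgb4 was called in none of the 4 comparisons: it ranged from 530 in P18 replicate 3 to 1594 in 6-month replicate 2, with libraries of every age overlapping.

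Itga3 and Itga7, the other laminin-binding alpha chains, rose over the whole span without the late fall of Itga6. Itga3 counted 187, 205 and 263 at P18, 298, 318 and 272 at P75, 457, 405 and 371 at 6 months and 485, 484 and 549 at 24 months, with log2 changes of 0.45, 0.47 and 0.30 (SE 0.13). The last of these, with an adjusted p of 0.0998, was lost in 8 of the 12 fits without a library (log2 change 0.23 to 0.38, adjusted p up to 0.271). Itga7, which the study used as an astrocyte marker, counted 194, 160 and 173 at P18, 298, 287 and 315 at P75, 267, 261 and 246 at 6 months and 373, 381 and 413 at 24 months. It rose (0.77 ± 0.10, adjusted p = 2.71e-05) and rose again late (0.59 ± 0.10, adjusted p = 0.00191), and the dip between (-0.22 ± 0.10, adjusted p = 0.0842) was lost in 6 of the 12 fits without a library, with an adjusted p up to 0.211, and in the fit that blocked on the replicate number (adjusted p = 0.104). Summed over 10 astrocytic markers the count was 101297 to 122334 at P18 and 105496 to 114505 at 24 months, while 6 of these markers were called higher and 2 lower over this span, with a median log2 change of 0.41. Their part in the values of Itga7 was not tested.

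Itgb2, the beta chain of leukocyte and microglial integrins, had the largest whole-life change of any integrin. It counted 41.6, 42.9 and 39.2 at P18, 60.1, 80.7 and 76.3 at P75, 123, 113 and 91.5 at 6 months and 168, 202 and 243 at 24 months, so that no 2 successive ages overlap. The log2 changes were 0.79, 0.59 and 0.89 (SE 0.17; adjusted p = 0.00155, 0.00803 and 0.00307), and 2.27 over the whole span. Of its alpha partners, Itgam and Itgax rose and Itgad fell over the whole span. Itgam averaged 133, 203, 333 and 361 at the successive ages, and Itgax 4.53, 3.94, 5.86 and 37.4, with a log2 change of 2.44 from 6 to 24 months (adjusted p = 0.00233). Before 24 months the means of Itgax were under the filter of 10, so it was tested only through the age at which it was high. Its call is therefore weak. Itgad averaged 112 at P18 and 11.6 at 24 months (log2 change -3.30, adjusted p = 8.16e-06). The summed microglial markers lay between 5449 and 6424 at P18 and between 14209 and 17117 at 24 months, with 9 of 10 called higher, and all 10 were above 100 in every library. Their part in the change of Itgb2 was not tested.

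The remaining integrins were low. Itga4, Itga5 and Itga8, alpha chains that bind fibronectin or related ligands, had whole-life log2 changes of 0.97, 1.30 and 0.74, all called. Itga1, Itga10 and Itga11, which bind collagen, had 0.80, 1.32 and 0.86, also called, from means of 13.7 to 28.3 at P18. Itgb3 and Itgb7 fell to P75 (-0.97 and -0.81) and rose to 6 months (0.89 and 0.60). Itga9 was called in none of the comparisons.

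**Figure D3:**
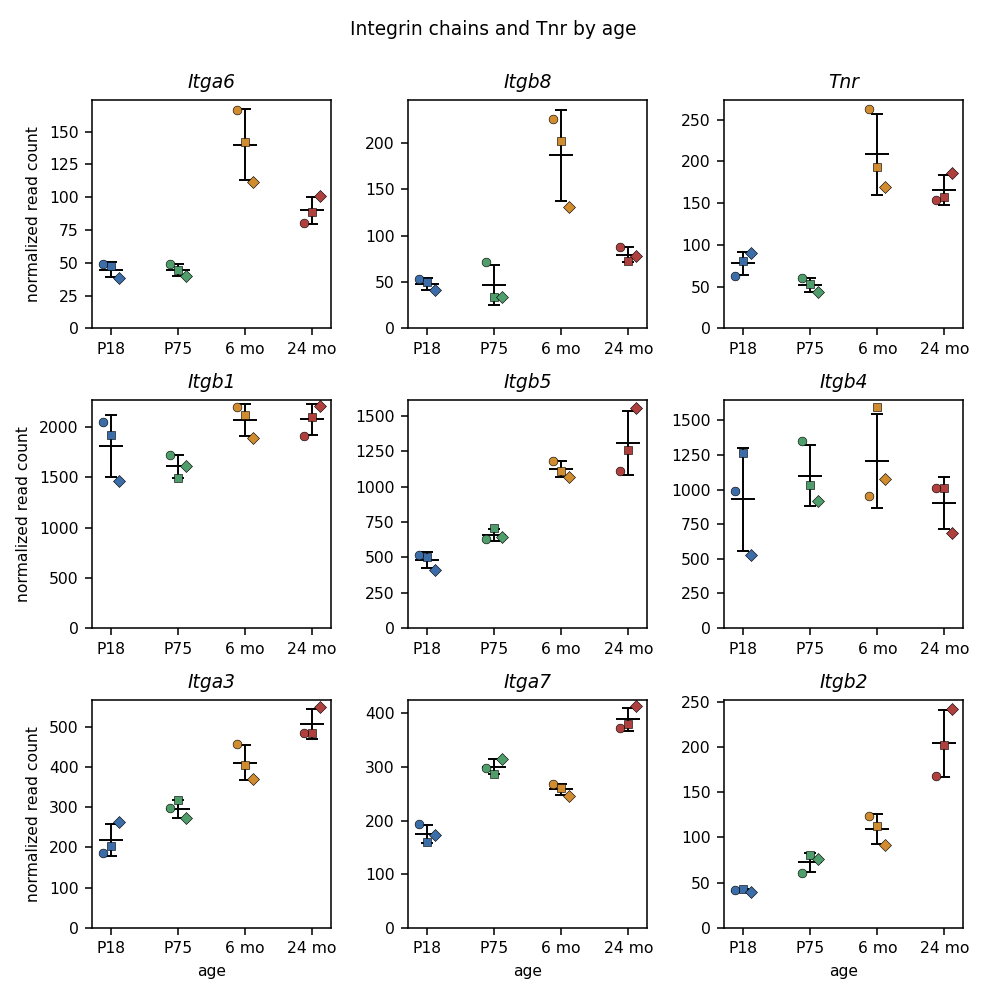
Normalized read count (y axis, from 0) of 8 integrin chains and Tnr at each age (x axis), where circles, squares and diamonds are replicates 1, 2 and 3, the bar is the mean and the whisker the SD over 3 libraries. Itga6, Itgb8 and Tnr have their highest means at 6 months, Itgb5, Itga3 and Itgb2 climb, and the libraries of Itgb4 overlap at all ages.

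The other matrix genes had no common course. Sparc, the most abundant member, counted 19085, 20146 and 15758 at P18, 11897, 11655 and 12363 at P75, 17294, 19583 and 15504 at 6 months and 16783, 17152 and 15335 at 24 months. P75 thus stood alone at the low end, with a log2 change of -0.61 ± 0.12 into it (adjusted p = 0.000656) and 0.54 ± 0.12 out of it (adjusted p = 0.00109). Hspg2, the basement membrane proteoglycan perlecan, fell once and stayed low. It counted 137, 129 and 102 at P18 and 48.5 to 82.1 in every later library, a log2 change of -0.92 ± 0.19 to P75 (adjusted p = 0.000998).

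Fn1 (fibronectin) rose at each step, from 149, 180 and 187 at P18 over 206, 190 and 242 at P75 and 325, 277 and 348 at 6 months to 372, 408 and 436 at 24 months. The whole-life log2 change was 1.24 ± 0.13 (adjusted p = 3.98e-07), and the first and last steps, at 0.31 and 0.36 (adjusted p = 0.0639 and 0.0591), were lost without P18 replicate 1 or P75 replicate 3 and without 6-month replicate 1 or 2 or 24-month replicate 2 or 3, with an adjusted p up to 0.246. Tnc, a tenascin of developing and injured tissue, counted 141, 127 and 76.3 at P18, 116, 113 and 109 at P75, 172, 112 and 147 at 6 months and 62.4, 82.2 and 96.3 at 24 months. It was the only matrix glycoprotein of the 5 that fell late (-0.83 ± 0.22, adjusted p = 0.0158).

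Collagens rose late. From 6 to 24 months 17 of 36 tested collagens rose and 0 fell, where 16.6% of all genes rose and 12.7% fell, and the median log2 change of the collagens was 0.40 against 0.028 for all genes. At an unadjusted p under 0.05 limma gave 0 lower collagens, edgeR called 19 higher and DESeq2 16, both with 0 lower, and 1 was called lower when only the libraries of these ages were fitted. The number of calls depended on single libraries: it was 7 without 6-month replicate 2, 9 without 24-month replicate 2 and 11 without 6-month replicate 1 or 24-month replicate 3. Of all genes 10.8%, 9.5%, 9.9% and 12.9% rose in these fits. With each library scaled to the same total it was 11 (9.5% of all genes), and with quantile normalization 9 (14.1%). The median log2 change of the collagens stayed between 0.38 and 0.47 over the 12 fits without a library. In the earlier steps 7 rose and 5 fell, and 9 rose and 6 fell, against 25.9% and 22.9%, then 31.2% and 29.4% of all genes. With the same-total scaling the first split was 13 to 2, where 32.4% of all genes rose and 12.5% fell and their median was 0.14. With quantile normalization it was 7 to 8, against 23.8% and 24.7% of all genes.

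**Figure D4:**
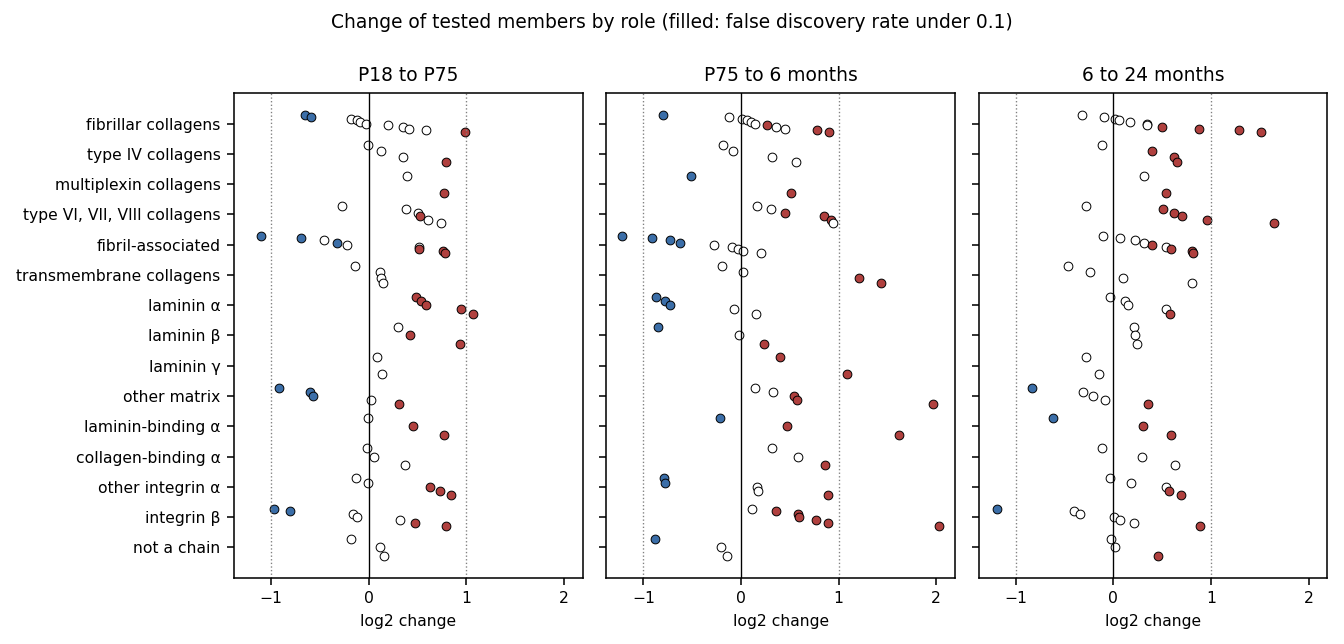
Log2 change (x axis) of 72 of the tested members, 1 point each, by role (y axis) in the 3 steps between successive ages; filled points passed a false discovery rate of 0.1 (red higher, blue lower at the later age), open points did not, and dotted lines mark a 2-fold change. The laminin alpha chains are all red in the first panel and none of them in the second, and in the third panel no collagen point is blue.

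Type IV collagen forms the network of basement membranes. Its main chains Col4a1 and Col4a2 lie head to head on chromosome 8, with Col4a1 on the minus strand (chr8:11198423-11312826, 52 merged exons) and Col4a2 on the plus strand (chr8:11312805-11449287, 48 merged exons) of NCBIM37. Their annotated transcripts overlap by 22 bases, shown here because both genes start from the same short stretch; capitals mark a GC box (GGGCGG).
Col4a1 and Col4a2, chr8:11312805-11312826, plus strand: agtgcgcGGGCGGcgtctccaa
Col4a1 counted 290, 332 and 542 at P18, 383, 393 and 343 at P75, 315, 305 and 367 at 6 months and 486, 535 and 492 at 24 months. Col4a2 counted 239, 250 and 424 at P18, 395, 388 and 339 at P75, 514, 407 and 480 at 6 months and 633, 742 and 841 at 24 months. From 6 to 24 months both rose without overlap, by log2 changes of 0.62 ± 0.17 and 0.66 ± 0.18 (adjusted p = 0.0186 and 0.0172).

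In the earlier steps neither neighbour was called. Col4a1 changed by -0.01 ± 0.17 and -0.18 ± 0.17 and Col4a2 by 0.35 ± 0.18 and 0.32 ± 0.18 in the first and second step. Without P18 replicate 3, however, both were called higher at P75 (0.26 and 0.61, adjusted p = 0.0688 and 0.000846). The ratio of Col4a2 to Col4a1, which does not depend on the scaling of a library, was 0.82, 0.75 and 0.78 at P18, 1.03, 0.99 and 0.99 at P75, 1.63, 1.33 and 1.31 at 6 months and 1.30, 1.39 and 1.71 at 24 months. It was thus below every later value at P18, close to 1 at P75 and at 1.30 or more from 6 months on. It was low also in replicate 3 at P18, in which both counts were high. Over the whole span Col4a2 rose by 1.32 ± 0.18 (adjusted p = 6.33e-06) and Col4a1 by 0.43 ± 0.17 (adjusted p = 0.0338). The latter call was lost without P18 replicate 1 or 2 or 24-month replicate 2 (log2 change 0.25 to 0.70, adjusted p up to 0.197). Whether the counting used strand is not given in the sources used here, and reads in the shared 22 bases could have been assigned to either gene or to none.

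The minor type IV chains lie in the same arrangement. Col4a5 and Col4a6 on the X chromosome are separated by 1308 bases. Col4a5 averaged 76.0 at P18 and 105 at 24 months (log2 change 0.45, adjusted p = 0.0244), and Col4a6 rose from 7.13, 7.91 and 6.03 at P18 to 18.8, 19.5 and 15.7 at 24 months (1.25 ± 0.29, adjusted p = 0.00151). Col4a4 and Col4a3, the kidney and inner ear chains, are separated by 71 bases on chromosome 1, shown because no annotated base of either gene lies within them, and both were below the level for testing. None of the motifs named above was found in it.
Between Col4a4 and Col4a3, chr1:82583425-82583495, NCBIM37, plus strand: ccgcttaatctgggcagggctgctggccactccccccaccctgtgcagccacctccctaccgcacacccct

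Type VIII collagen, a short-chain network collagen of vessels and of the membrane under the corneal endothelium, is made of Col8a1 and Col8a2. The chains lie on different chromosomes and rose by nearly equal whole-life log2 changes of 1.94 ± 0.25 and 1.95 ± 0.19 (adjusted p = 5.02e-06 and 2.55e-07). Col8a1 counted 30.9, 28.2 and 25.1 at P18, 23.1, 44.5 and 48.6 at P75, 82.9, 49.7 and 73.0 at 6 months and 101, 122 and 108 at 24 months. Col8a2 counted 28.5, 24.9 and 32.1 at P18, 45.1, 48.2 and 32.1 at P75, 99.1, 71.0 and 70.1 at 6 months and 112, 120 and 106 at 24 months. For both the step to 6 months was called (0.85 ± 0.25 and 0.92 ± 0.19, adjusted p = 0.00976 and 0.000852). The step to 24 months (0.71 and 0.51, adjusted p = 0.0572 and 0.075) was lost in 3 and 5 of the 12 fits without a library, among them those without 6-month replicate 2 and 24-month replicates 2 and 3, with log2 changes of 0.50 to 0.86 and 0.42 to 0.67. The 250 bases before each start are shown for this pair, which rose by the same amount; capitals mark GC boxes on either strand.
Col8a1, chr16:57754738-57754987, minus strand: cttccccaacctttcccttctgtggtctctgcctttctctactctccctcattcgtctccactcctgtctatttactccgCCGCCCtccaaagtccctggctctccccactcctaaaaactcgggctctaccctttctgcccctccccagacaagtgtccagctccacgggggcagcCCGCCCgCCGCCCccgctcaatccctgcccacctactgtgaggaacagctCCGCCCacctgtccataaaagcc
Col8a2, chr4:126286544-126286793, plus strand: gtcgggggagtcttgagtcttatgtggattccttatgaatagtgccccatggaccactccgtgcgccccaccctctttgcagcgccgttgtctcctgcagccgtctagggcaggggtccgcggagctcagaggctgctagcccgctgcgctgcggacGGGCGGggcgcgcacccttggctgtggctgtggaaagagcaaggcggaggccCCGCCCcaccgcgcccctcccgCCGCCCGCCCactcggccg
Each window held 4 GC boxes, of which 2 in Col8a2 overlap, and 0 CCAAT or TATA boxes, and 60.8% and 70.0% of the bases were G or C (RefSeq, GRCm38.p6). A GC box was found in 32.7% of all windows of this length and in 47.8% of the 67 windows of members.

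The largest whole-life rise among members with a mean above 100 at some age was that of Col24a1, a minor fibrillar collagen. It counted 9.51, 4.52 and 25.1 at P18, 24.1, 16.7 and 25.4 at P75, 37.4, 39.9 and 47.7 at 6 months and 112, 99.5 and 96.3 at 24 months. The 6-month libraries lay above all of P75 and the 24-month libraries above all others, while P18 replicate 3 reached the P75 range. The log2 change was 3.17 ± 0.38 over the whole span (adjusted p = 2.39e-06) and 1.28 ± 0.38 from 6 to 24 months (adjusted p = 0.0292). The earlier steps of 0.98 and 0.90 (adjusted p = 0.0504 and 0.0582) were lost in 4 and 2 of the fits without a library, with log2 changes of 0.46 to 1.58 and 0.72 to 1.01. Col7a1, the anchoring fibril collagen, changed by 3.33 ± 0.53, but from only 4.75, 1.13 and 13.1 at P18 to 52.5, 53.0 and 60.2 at 24 months.

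Type VI collagen, a beaded-filament collagen of connective tissue, was led by Col6a1. It counted 196, 191 and 675 at P18, 575, 442 and 354 at P75, 494, 474 and 545 at 6 months and 1009, 1050 and 889 at 24 months. All 24-month libraries lay above all others, while P18 replicate 3 lay at more than 3-fold the other P18 libraries. The step to 24 months had a log2 change of 0.96 ± 0.33 (adjusted p = 0.0492), lost without 6-month replicate 1 or 2 or 24-month replicate 1 or 2 although the log2 change stayed between 0.91 and 1.03 (adjusted p up to 0.133). From P18 to P75 the change was 0.61 ± 0.33 (adjusted p = 0.149) with all libraries and 1.21 without P18 replicate 3 (adjusted p = 5.93e-06). Its neighbour Col6a2 did not share the high value: it counted 86.7, 108 and 104 at P18, so that the ratio of Col6a1 to Col6a2 was 2.26, 1.76 and 6.52 there and 4.11 to 6.11 in the later libraries. Col6a2 rose to 6 months (0.45 ± 0.14, adjusted p = 0.0142) and to 24 months (0.62 ± 0.14, adjusted p = 0.00868).

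Among the collagens that attach to fibrils, Col16a1 rose in the first and the last step, and its P75 and 6-month libraries overlapped. It counted 84.4, 79.1 and 94.4 at P18, 161, 151 and 128 at P75, 156, 153 and 138 at 6 months and 266, 256 and 267 at 24 months (0.76 ± 0.12 to P75, 0.82 ± 0.12 to 24 months, adjusted p = 0.000152 and 0.000796). Col11a1, a fibrillar chain, counted 105.6 to 155 at 6 months and 228, 240 and 236 at 24 months (0.88 ± 0.20, adjusted p = 0.0092). Col5a3 changed in both directions, with -0.80 ± 0.31 to 6 months and 1.51 ± 0.31 to 24 months.

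Col18a1 and Col5a1, a basement membrane and a fibrillar collagen, rose over the whole span by 1.60 ± 0.23 and 1.30 ± 0.29 (adjusted p = 1.31e-05 and 0.00105). Col18a1 counted 84.4, 107 and 194 at P18 and 360, 385 and 357 at 24 months, and Col5a1 46.3, 55.4 and 150 at P18 and 167, 203 and 172 at 24 months. For Col18a1 P18 replicate 3 lay inside the P75 range of 184 to 252, and for Col5a1 above the P75 range of 107 to 113. Col19a1 behaved alike, with 166, 129 and 346 at P18, a P75 range of 315 to 372 and a 24-month range of 357 to 443 (1.04 ± 0.24, adjusted p = 0.00142).

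The collagens of skin and bone did not take part. Col1a1 and Col1a2, the chains of type I collagen, had log2 changes of -0.09 and 0.06 from 6 to 24 months, neither called, and Col3a1 fell over the whole span from 197, 182 and 102 to 63.4, 96.2 and 87.9 (-0.92 ± 0.22, adjusted p = 0.00178). Col9a1 was the only member to fall by more than 2-fold over life, and was picked out after its values were seen. It counted 71.3, 82.5 and 73.3 at P18, 32.1, 41.7 and 30.9 at P75, 10.6, 17.8 and 15.6 at 6 months and 17.8, 23.8 and 11.1 at 24 months, and it fell by 1.10 on the log2 scale and then by 1.22 (SE 0.27; adjusted p = 0.00377 and 0.00127). Col9a2 and Col9a3, the other chains of type IX collagen, were higher in level and changed by -0.13 and -0.35 over the whole span, of which the latter was called (adjusted p = 0.00899).

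**Figure D5:**
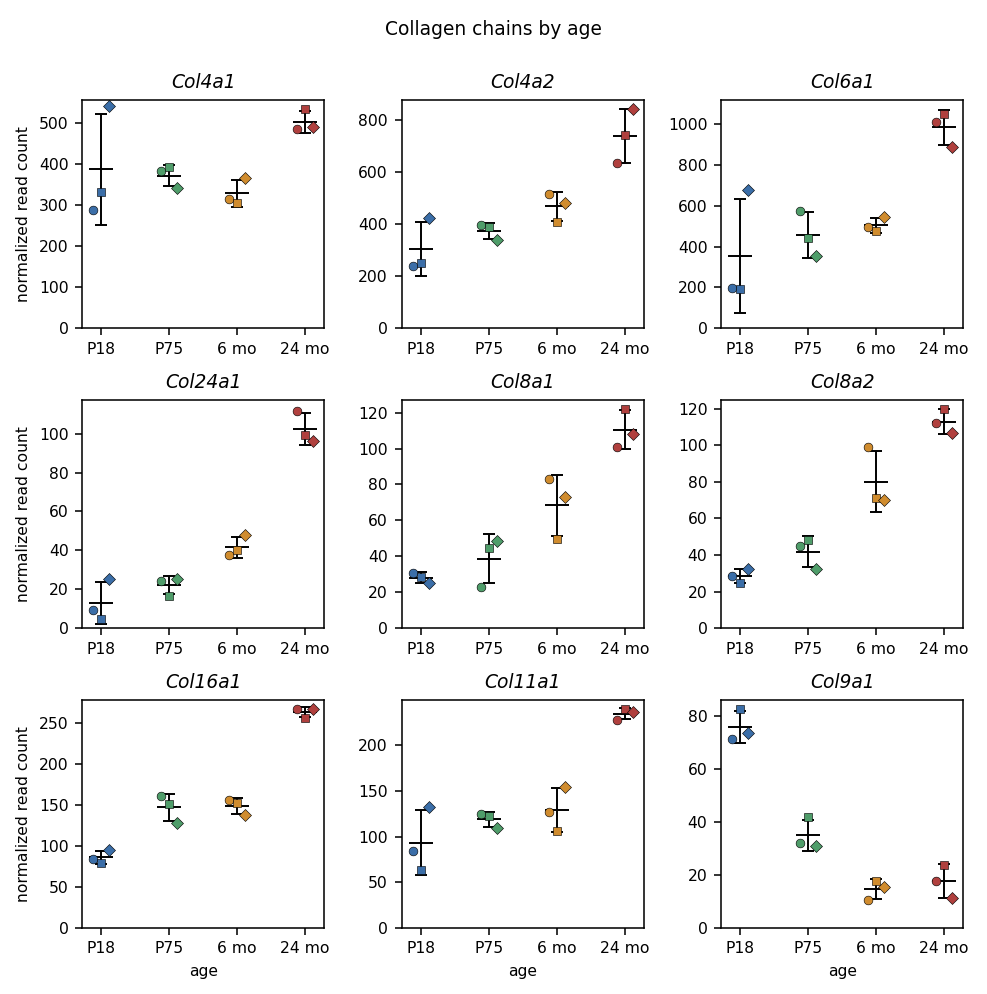
Normalized read count (y axis, from 0) of 9 collagen chains at each age (x axis), where circles, squares and diamonds are replicates 1, 2 and 3, the bar is the mean and the whisker the SD over 3 libraries. All but Col9a1 are highest at 24 months, Col9a1 is highest at P18, and the P18 diamond (replicate 3) lies above the other P18 libraries for Col4a1, Col4a2, Col6a1, Col24a1 and Col11a1.

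Replicate 3 at P18 was more than 2-fold above the mean of the other P18 libraries in 9 of the 73 tested members (12.3%), against 1.05% of all tested genes. Without it 43 of the 73 tested members changed from P18 to P75, 31 upward and 12 downward. In that fit 50.1% of all genes changed, 26.7% upward and 23.3% downward. Calls gained were those of Col11a1, Col15a1, Col1a2, Col23a1, Col4a1, Col4a2, Col5a1, Col6a1, Col7a1, Itgb1 and Itgb1bp1, and that of Col20a1 was lost. Whole-life log2 changes without this library were 3.76 for Col24a1, 1.94 for Col18a1, 1.81 for Col5a1, 1.58 for Col4a2, 1.45 for Col19a1 and -1.21 for Col3a1. Over the whole span 57 members were then called, 47 upward and 10 downward, where 34.9% of all genes rose and 34.2% fell. Among them were Col5a3 (0.96, adjusted p = 0.00333) and Itgb3 (-0.69, adjusted p = 0.0151), which were not called with all libraries. In this library the summed oligodendrocyte markers were lowest of the P18 libraries (340391, against 534127 and 613682) and the fibroblast and meningeal markers highest (4790, against 3359 and 3169). Their part in its collagen values was not tested.

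Most fibroblast, meningeal and choroid plexus markers rose over life, with most of the calls in the steps up to 6 months. Of the 10 fibroblast and meningeal markers, 9 were higher at 24 months than at P18, with a median log2 change of 2.20. At P18 and P75 they summed to 3169 to 4790 and 2938 to 3748, against 6147 to 6397 in the 6-month and 6974 to 7672 in the 24-month libraries. By marker, 6 rose and 2 fell in the first step (median log2 change 0.87) and 8 rose and 0 fell in the middle step (0.94), in which 9 collagens rose and 6 fell. All 7 choroid plexus markers rose over life, led by Ttr with means of 13440 at P18 and 44404 at 24 months. From 6 to 24 months 17 collagens rose, where 16.6% of all genes rose. In this step 2 of 10 fibroblast and meningeal, 1 of 7 choroid plexus, 2 of 12 endothelial and 2 of 10 mural markers rose. Of these lists, 1 mural marker fell. Of the 10 microglial markers 6 rose and 0 fell. The choroid plexus sum lay between 27711 and 32099 at 6 months and between 42935 and 47612 at 24 months, and its called marker was Ttr. The endothelial sum was 937 to 1086 at P18 and 935 to 1034 at 24 months. The part of these cells in the collagen values was not tested.

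The genes that make, bind and remodel this matrix were followed as a list of 96, of which 89 were tested. Of these, 51 rose and 17 fell from P18 to 24 months, when 34.7% of all genes rose and 34.3% fell. Collagen processing enzymes rose in 13 of 18 cases, among them Pcolce and Pcolce2, which enhance procollagen cleavage (2.04 and 2.24), and the prolyl hydroxylase P4ha1 (1.36). Of the thrombospondins and relatives of Sparc 9 of 10 rose, Spp1 (osteopontin, an integrin ligand) by 2.51 and Vtn (vitronectin, a ligand of Itgb5) by 1.61, and Thbs3 fell (-0.85).

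Of 8 other basement membrane genes 7 rose between P75 and 6 months, where 31.2% of all genes rose, and Agrn (agrin) was the eighth. Nid1, the nidogen that links laminin to type IV collagen, fell from P18 to P75 by 1.47 and ended lower at 24 months (-1.27, adjusted p = 6.06e-05). Of 12 metalloproteinases and inhibitors 7 rose to 6 months, Mmp14 by 1.22 and Timp2 by 1.08. The discoidin collagen receptors Ddr1 and Ddr2 had whole-life log2 changes of 0.16 and 0.91, both called.

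The cytoplasmic partners of integrins fell more often than they rose, except in the middle step. Of 18 adaptors and kinases 1 rose and 9 fell from P18 to P75, 4 rose and 2 fell to 6 months, 2 rose and 6 fell to 24 months, and 2 rose and 12 fell over the whole span. Of all genes 25.9%, 31.2%, 16.6% and 34.7% rose, and 22.9%, 29.4%, 12.7% and 34.3% fell. In the middle step 33.3% of these adaptors and kinases were called, against 60.6% of all genes. Parvb (beta-parvin) averaged 1438 at P18 and 270 at P75 (log2 change -2.43, adjusted p = 2.69e-08), Lims2 (a partner of integrin-linked kinase) 796 and 306 (-1.36, adjusted p = 5.44e-06), and Fyn, the kinase that acts downstream of integrins in oligodendrocytes, 5807 and 2907 (-1.0, adjusted p = 2.28e-07). Ilk and Vcl were the 2 that rose over life. The mature oligodendrocyte markers fell with them, 6 of 10 from P18 to P75 with a median log2 change of -0.79, and their part in these values was not tested.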

How the data were processed

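Per the labels and the methods of the study, the authors aligned reads to mm9 with TopHat (version 2.0.8 in the submitters' processing notes, with SAMtools 0.1.19), counted reads per gene with HTSeq 0.5.4p1 and scaled each library by its DESeq size factor. The result, a normalized read count, is the deposited signal. Dividing it by what 1 read is worth gave whole numbers for 100% of values (within 0.1), so the authors' counts could be recovered. Members and gene lists were chosen with earlier results of these data known.

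Ages were compared with limma 3.58.1 (trend, empirical Bayes; R 4.3.3) on log2(normalized read count + 1), in 1 fit of 12 libraries with age alone, over 14634 genes with a mean of at least 10; Benjamini-Hochberg adjusted p under 0.1 was a call. Fold changes on this scale understate low genes. An exact test of 3 against 3 cannot go below p = 0.1. Named members passed 2-fold with a mean over 100 at an age, or were named by role. Alternatives were other pseudocounts, filters, scalings and thresholds, edgeR 4.0.16, DESeq2 1.42.0, a replicate block and leaving out each library. Same-numbered libraries of P75 and 6 months deviated together (correlations of 0.101 to 0.187 over genes), although no source ties the numbers to a shared day. The block was 1 replicate effect shared by all 12 libraries, so it did not pair these ages alone. Lengths and positions came from GENCODE on NCBIM37. The methods were tested on simulated data. Values of 1 tested member are not reported here, though counts include it.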

Additional observations from a re-analysis of the deposited data

How the results depend on the processing

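The number of members changed was 33, 40, 28 and 53 from P18 to P75, P75 to 6 months, 6 to 24 months and P18 to 24 months. A filter for a mean over 100 left 37 members and gave 21, 17, 14 and 26, since fewer genes were tested. Of all genes so filtered 54.6%, 64.5%, 32.3% and 73.2% changed. From 6 to 24 months quantile normalization gave 17 and a false discovery rate of 0.05 gave 16 by its own construction. For the former the cause was not tested. Of all genes 28.8% and 19.5% changed under these settings. Leaving out each library gave 29 to 43, 34 to 47, 12 to 33 and 47 to 57. For 6 to 24 months the lowest counts of the 73 tested members came without 6-month replicate 2 (12), 24-month replicate 2 (16) and 6-month replicate 1 (18). In these fits 18.9%, 17.0% and 16.9% of all genes changed, against 29.3% with all libraries. Without 6-month replicate 2 the share of members called was thus below that of all genes. edgeR gave 33, 42, 33 and 52 and DESeq2 32, 39, 28 and 50.

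Among named members the change of sign that became a call was that of Col4a1 from P18 to P75: its log2 change of -0.01 ranged from -0.189 to 0.262 over the fits without a library, the latter (adjusted p = 0.0688) without P18 replicate 3. Of 78 calls of named members, 20 were lost under at least 1 alternative, 17 of them without some library. Scaling to the same total moved the median log2 change of all genes to 0.14 for P18 to P75 and split the members 31 upward to 7 downward, against 23 to 10. In that fit 32.4% of all genes rose and 12.5% fell.

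A fit that blocked on the replicate number gave 34, 40, 27 and 52, and of the named calls it lost those of Itga3 from 6 to 24 months and of Itga7 from P75 to 6 months. The numbers mark different mice. In the other steps between successive ages same-numbered libraries correlated between -0.213 and -0.026 in their deviations from the age means, and there they share only a number. For P75 and 6 months, where 3 of 3 libraries correlated best with their own number, the block lost the call of Itga7 and gained that of Col7a1 (log2 change 0.94), and changed no other call of a tested member. A pairing of these ages alone was not fitted, so its effect on the calls is not known. Groups of 3 libraries limit precision, and members with counts near 10 rest on few reads.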

Other observations

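Among the 5 genes that match the symbol pattern without encoding a chain, Col4a3bp, the ceramide transfer protein, counted 1710 to 2132 in the 12 libraries and was called in none of the comparisons. Itgb1bp1, an adaptor that binds the tail of Itgb1, averaged 741 at P18 and 568 at 24 months (log2 change -0.37). Itgb3bp, a centromere protein, fell from P75 to 6 months (-0.88) and rose from 6 to 24 months (0.46).

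The course of the 73 tested members over the 3 steps took 18 forms. The share of all tested genes with each form was not computed, so whether these counts differ from it is not known. No step was called for 13 members, Itgb4, Itga9 and Col9a2 among them. A rise in each step was called for 5, namely Col24a1, Col8a2, Fn1, Itga3 and Itgb2. All but Itgb2 lost at least 1 of these steps when some library was left out, Col8a2 its first step (log2 change 0.41 to 0.70 over all fits without a library, adjusted p up to 0.149) without P18 replicate 2 or P75 replicate 1 or 2. A dip at 6 months, with a rise, a fall and a rise, was called for another 5, namely Col12a1, Itga2b, Itga7, Itga8 and Lama1, where Col12a1 counted 238, 257 and 250 at P75 and 138, 103 and 160 at 6 months.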
